A study of Mus musculus with 6 samples.

Results

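The fibrillar collagen chains are the 10 genes *Col1a1*, *Col1a2*, *Col3a1*, *Col5a1*, *Col5a2*, *Col5a3*, *Col11a1*, *Col11a2*, *Col24a1* and *Col27a1*, picked by gene name from the 31613 genes of the deposited count table. All 10 were found, and all 10 were among the 16519 genes that passed the filter on low counts. The counts came from bulk RNA sequencing of mouse dental papilla cells (mDPCs), from which the dentin-forming odontoblasts arise. Cells were taken at postnatal day 6 from 3 control and 3 *Dmp1*-Cre;*Setd2* fl/fl samples, each of them RNA pooled from 3 biological replicates. *Setd2* encodes the enzyme that trimethylates lysine 36 of histone H3, and both of its alleles carry loxP sites in the *Dmp1*-Cre;*Setd2* fl/fl mice, called conditional knockout (cKO) here. The Cre is driven by *Dmp1*, a gene of odontoblasts and osteocytes, so papilla cells that do not make Cre keep the gene. The labels call the controls wild type, whereas the methods name *Setd2* fl/fl mice as controls on the same C57BL/6J background.

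Fibrillar collagens are the rope-forming proteins of dentin, bone, skin and cartilage. Their chains are wound into a helix in the endoplasmic reticulum, secreted as procollagens, trimmed at both ends and cross-linked into banded fibrils. Type I collagen, made of *Col1a1* and *Col1a2* chains, is the bulk of the organic matrix that odontoblasts lay down as predentin. Type III collagen is common in soft pulp and blood vessel walls, and types V and XI are minor chains that copolymerize with the main collagen and limit fibril width. Types XXIV and XXVII are further relatives found in mineralizing tissue and cartilage.

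Each library held 18557647 to 19210750 counts. *Setd2* stood at 98.0, 96.5 and 92.0 CPM (counts scaled to library size with the trimmed mean of M-values) in control replicates 1, 2 and 3, and at 102, 98.5 and 96.0 CPM in cKO replicates 1, 2 and 3. The count runs over the whole gene and over all cells, so it does not check the genotype. Odontoblast markers were present in every library: the 6 markers (*Dspp*, *Dmp1*, *Phex*, *Nes*, *Sall1*, *Wisp1*) summed to 16079 to 16926 CPM in controls and to 1024, 724 and 6602 CPM in cKO replicates 1, 2 and 3. *Dspp* made up most of the sum in controls, at 13900 to 14372 CPM, and stood at 436, 215 and 5299 CPM in cKO replicates 1, 2 and 3. Replicate 3 of the cKO group thus stood apart from replicates 1 and 2. Replicate 3 of both groups also held the most epithelial RNA, with 6 markers summing to 30119 CPM in the control and 49807 CPM in the cKO library against 2181 to 7243 CPM in the other 4. Fewer cells of a type and less RNA per cell cannot be told apart in bulk samples. The samples are pools, so the p-values measure the spread between pools. The study's summary of mice lists fewer animals per genotype for this collection than separate pools would need, so pools may share animals and p-values may be too small.

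All 3 cKO libraries lay below all 3 controls for 7 of the 10 chains, namely *Col1a1*, *Col1a2*, *Col5a2*, *Col11a1*, *Col11a2*, *Col24a1* and *Col27a1*. Among all genes tested, 7.98% showed this. At the study's thresholds (p under 0.05 before adjustment, and 0.58 or more in size on the log2 scale), edgeR called 5 chains lower, *Col1a1*, *Col1a2*, *Col5a2*, *Col11a1* and *Col24a1*, where 2.71% of all genes were called lower. No chain was called higher, against 1.10% of all genes. After Benjamini-Hochberg adjustment over all genes, edgeR called 0 chains at an adjusted p under 0.05, and no gene in the table passed, although 729 genes had an unadjusted p under 0.05 in the lower direction. The replicate numbers were read as pairing, although the values set only replicate 3 apart. A fit with that number as block called 2 chains lower at an adjusted p under 0.05, *Col5a2* and *Col24a1*, where 0.799% of all genes were called. The block left the count at the study's thresholds at 5 chains, where 4.37% of all genes were called. DESeq2 called 3 chains at an adjusted p under 0.05 (*Col5a2*, *Col11a1* and *Col24a1*; 0.672% of all genes), and limma voom with quality weights called 7 (5.67% of all genes).

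The count turned on cKO replicate 3. Without it, edgeR called the same 7 chains whose groups did not overlap, both at the study's thresholds (6.88% of all genes lower) and at an adjusted p under 0.05 (2.65% of all genes). With replicate 3 left out of both groups, 7 chains were also called at an adjusted p under 0.05 (4.48% of all genes). Without any single one of the other 5 libraries, only *Col5a2*, *Col11a1* and *Col24a1* were called at the study's thresholds, and *Col1a1* and *Col1a2* were not. Over all genes these 5 fits called from 282 of 16944 (without cKO replicate 2) to 539 of 16935 (without control replicate 3) lower. With all libraries 448 of 16519 genes were called lower.

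**Figure D1:**
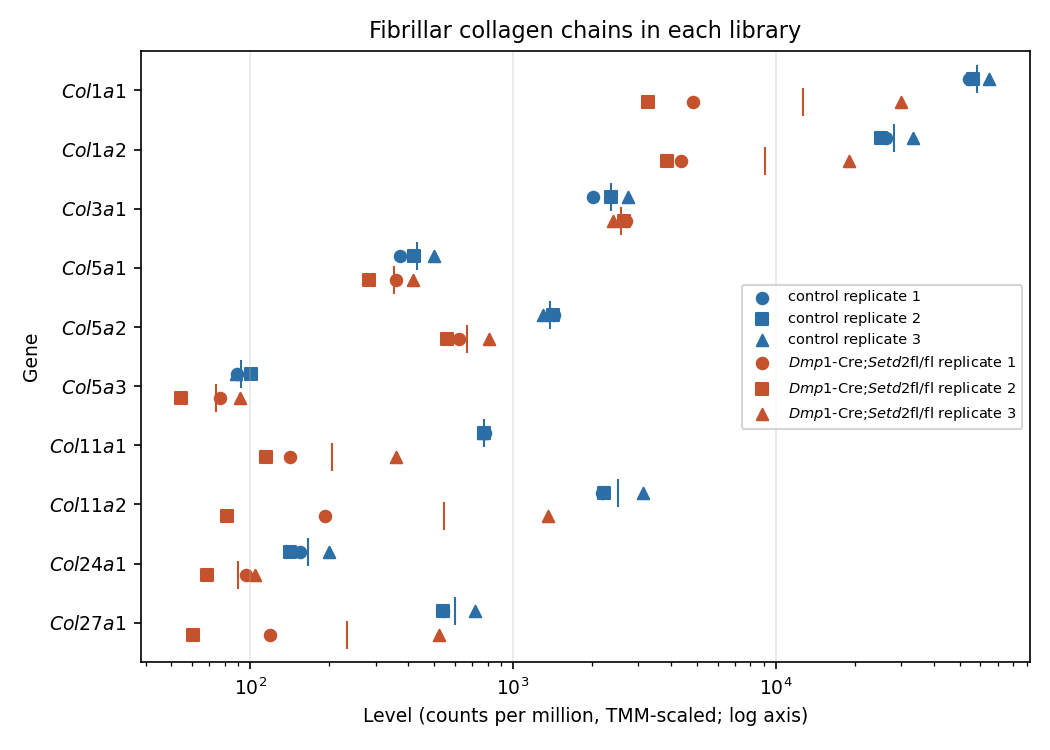
Level of each chain in each library in CPM on a log axis, with blue symbols for control and orange symbols for cKO libraries, the symbol shape giving the replicate number and the vertical ticks the group means. For *Col1a1* the orange symbols lie at 4855, 3267 and 29999 CPM, and the triangle of replicate 3 is the highest of its group for every chain but *Col3a1*.

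Type I collagen was the most abundant member. *Col1a1* (ENSMUSG00000001506, chromosome 11, 94936224 to 94953042, plus strand; positions here are those of the deposited table and fit the GRCm38 build) read 54159, 56370 and 64929 CPM in control replicates 1, 2 and 3. In the cKO libraries it read 4855, 3267 and 29999 CPM, so that replicate 3 held 51.3% of the control mean and the other two 8.30% and 5.59%. The groups did not overlap, at a log2 fold change of -2.20 (standard error 0.84, edgeR adjusted p = 0.638). Without cKO replicate 3 it was -3.85 (standard error 0.31, edgeR adjusted p = 0.000757). It passed the study's thresholds with all 6 libraries and not without any single one of the other 5.

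*Col1a2* (ENSMUSG00000029661, chromosome 6, 4504814 to 4541544, plus strand), the partner chain of type I collagen, read 26333, 25141 and 33191 CPM in controls and 4356, 3859 and 19010.5 CPM in cKO libraries. It changed by -1.64 on the log2 scale (standard error 0.64, edgeR adjusted p = 0.644), and -2.78 (standard error 0.25, edgeR adjusted p = 0.00142) without cKO replicate 3. Its call, too, was lost without any single one of the other 5 libraries. A low-count gene listed within *Col1a2*, *Gm43921*, held 9 to 56 counts per library, and counting took no account of strand.

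Type III collagen did not share this. *Col3a1* (ENSMUSG00000026043, chromosome 1, 45311538 to 45349706, plus strand) read 2014, 2352 and 2745 CPM in controls and 2692, 2639.8 and 2408 CPM in cKO libraries. All 3 of the latter values fell inside the control range, at a log2 fold change of 0.12 (standard error 0.16, edgeR adjusted p = 0.856). Over the fits tried it ran from 0.02 to 0.30.

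The type V chains split. *Col5a2* (ENSMUSG00000026042, chromosome 1, 45374321 to 45503282, minus strand) had the smallest p of the 10 chains and the rank of 14 among all genes tested. It read 1429, 1414 and 1301 CPM in controls and 623, 562 and 812 CPM in cKO libraries, a tight pair of groups with a gap between them. It changed by -1.05 on the log2 scale (standard error 0.17, edgeR adjusted p = 0.450), and with the replicate block -1.07 (standard error 0.16, edgeR adjusted p = 0.0298).

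*Col5a1* (ENSMUSG00000026837, chromosome 2, 27886425 to 28039514, plus strand), the chain found in nearly all type V molecules, read 372, 420.5 and 499 CPM in controls. In cKO libraries it read 359, 283 and 416 CPM, and the groups overlapped. Its log2 fold change of -0.29 (standard error 0.18, edgeR adjusted p = 0.708) passed neither threshold. *Col5a3* (ENSMUSG00000004098, chromosome 9, 20770050 to 20815067, minus strand), a chain of restricted distribution, read 89.2, 100.5 and 88.2 CPM against 76.9, 54.7 and 91.6 CPM. Its groups overlapped through replicate 3 as well, at a log2 fold change of -0.32 (standard error 0.19, edgeR adjusted p = 0.702).

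Both type XI genes were low in the cKO libraries. *Col11a1* (ENSMUSG00000027966, chromosome 3, 114030540 to 114220718, plus strand) read 782, 773 and 769 CPM in controls, a coefficient of variation of 0.890%. It read 142, 115 and 358 CPM in cKO libraries. The change was -1.92 on the log2 scale (standard error 0.43, edgeR adjusted p = 0.558), and *Col11a1* stayed past the study's thresholds without any single library.

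*Col11a2* (ENSMUSG00000024330, chromosome 17, 34039437 to 34066685, plus strand), the gene named in the title of the series, read 2186, 2222 and 3123 CPM in controls and 192, 81.9 and 1359.8 CPM in cKO libraries. Replicate 3 held 54.2% of the control mean, and replicates 1 and 2 held 7.67% and 3.26%. The log2 fold change was -2.20, as large as that of *Col1a1*, but with a standard error of 0.98 it missed the study's p threshold (edgeR adjusted p = 0.667). DESeq2 called it at the study's thresholds, with a DESeq2 adjusted p = 0.445. Without cKO replicate 3 the log2 fold change was -4.20 (standard error 0.43, edgeR adjusted p = 0.00419). Leaving out any other single library gave an edgeR adjusted p of 0.67 or more for *Col11a2*. In cartilage type XI collagen takes a further chain from *Col2a1*, which is no member here and read 17.7 ± 5.96 CPM in controls and 15.6 ± 6.87 CPM in cKO libraries (SD, n = 3 each).

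Of the genes of types XXIV and XXVII, *Col24a1* (ENSMUSG00000028197, chromosome 3, 145292472 to 145552011, plus strand), known from developing bone, read 155, 142 and 199 CPM in controls and 96.3, 68.2 and 104 CPM in cKO libraries. Its change was -0.89 on the log2 scale (standard error 0.20, edgeR adjusted p = 0.558), and -0.89 (standard error 0.11, edgeR adjusted p = 0.0167) with the replicate block. *Col27a1* (ENSMUSG00000045672, chromosome 4, 63214004 to 63334991, plus strand), known from cartilage, read 543, 539.7 and 717 CPM in controls and 119, 60.5 and 523 CPM in cKO libraries. Replicate 3 lay just below the lowest control, at a log2 fold change of -1.36 (standard error 0.75, edgeR adjusted p = 0.696). Without that library it was -2.74 (standard error 0.32, edgeR adjusted p = 0.00645). Leaving out any other single library gave an edgeR adjusted p of 0.71 or more for *Col27a1*.

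**Figure D2:**
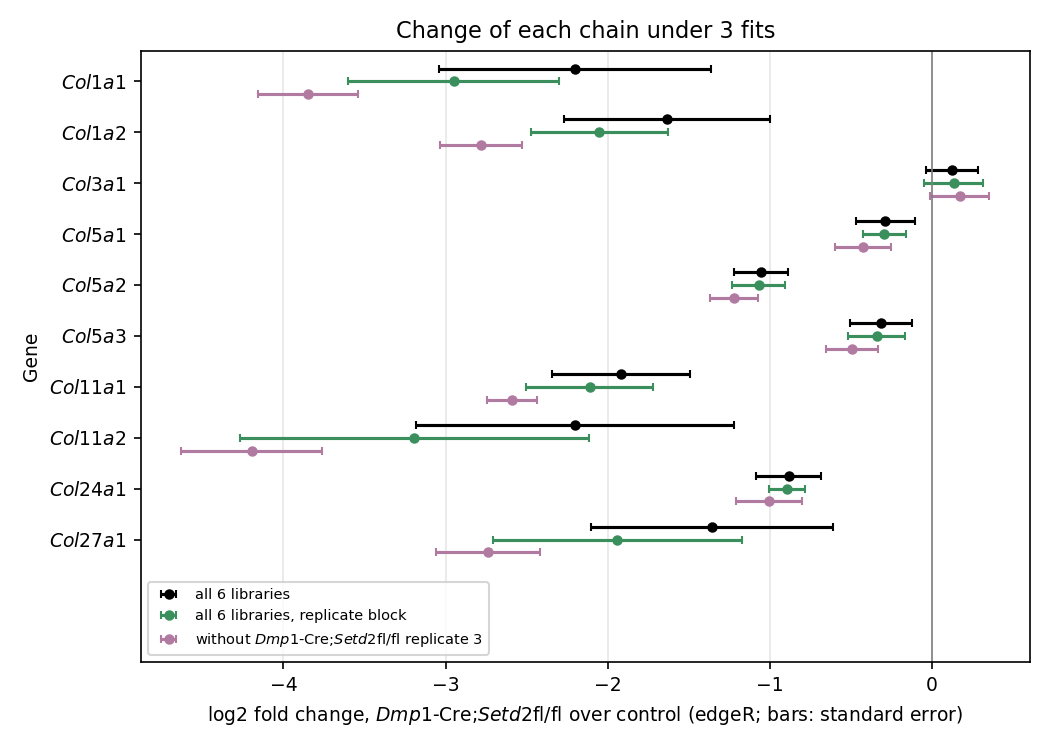
The log2 fold change of each chain, cKO over control, from edgeR with all 6 libraries (black), with the replicate block (green) and without cKO replicate 3 (purple), with bars of 1 standard error. *Col5a2* stays between -1.05 and -1.22 in these 3 fits, whereas *Col11a2* moves from -2.20 to -4.20.

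The cKO libraries differed among themselves most for *Col11a2* and *Col1a1*. On the log2 scale, replicate 3 lay above the mean of replicates 1 and 2 by 3.44 for *Col11a2*, 2.91 for *Col1a1*, 2.62 for *Col27a1*, 2.21 for *Col1a2* and 1.48 for *Col11a1*. The same difference was 0.46 for *Col5a2* and 0.36 for *Col24a1*. Replicate 3 did not show part of the gap between the controls and replicates 1 and 2. Measured on the log2 scale and not in CPM, this part was 93.4% for *Col27a1*, 79.9% for *Col11a2*, 79.8% for *Col1a2* and 75.2% for *Col1a1*. It was 57.1% for *Col11a1*, 37.3% for *Col5a2* and 35.4% for *Col24a1*. *Col5a1* and *Col5a3*, whose groups overlapped, gave 90.8% and 97.3%, with replicate 3 above the other two by 0.38 and 0.50 on the log2 scale. Odontoblast markers moved with these chains across the libraries: *Dspp*, the gene of the main non-collagen protein of dentin, read 14165, 14372 and 13900.4 CPM in controls and 436, 215 and 5299 CPM in cKO libraries. The part of odontoblast number in the collagen values was not tested.

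To compare levels between genes, CPM were divided by the spliced length of each canonical transcript. In controls *Col1a1* led with 9863 ± 959 CPM per kb, followed by *Col1a2* with 5266 ± 811 CPM per kb (SD, n = 3 here and below). *Col3a1* with 426 ± 65.7 and *Col11a2* with 395 ± 83.7 CPM per kb came next, and these 2 overlapped. Below them stood *Col5a2* (183 ± 9.24), *Col11a1* (100.3 ± 0.892), *Col27a1* (78.8 ± 13.3), *Col5a1* (51.0 ± 7.57), *Col24a1* (23.2 ± 4.22) and *Col5a3* (15.0 ± 1.11 CPM per kb), with no overlap between neighbours. With all annotated exons merged as the length, *Col3a1* and *Col11a2* changed places, and so did *Col27a1* and *Col5a1*.

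In the cKO libraries *Col1a1* (2143 ± 2529 CPM per kb) and *Col1a2* (1693 ± 1606 CPM per kb) still led the order by mean, and their ranges overlapped. *Col3a1*, at 464 ± 27.2 CPM per kb, came next. In replicate 2 the 3 genes stood at 551, 720.1 and 474 CPM per kb for *Col1a1*, *Col1a2* and *Col3a1*. *Col5a2* (88.2 ± 17.2) and *Col11a2* (85.8 ± 112) followed, and *Col11a1* (26.6 ± 17.2 CPM per kb) stood below *Col5a1* (41.8 ± 7.92 CPM per kb), the reverse of controls. The *Col1a1* to *Col1a2* ratio per length was 1.86, 2.03 and 1.77 in controls and 1.01, 0.765 and 1.43 in cKO libraries.

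The 10 genes held 8.76%, 8.85% and 10.0% of all counts in control replicates 1, 2 and 3, and 1.49%, 1.12% and 5.29% in cKO replicates 1, 2 and 3. The 95% Wilson intervals of the shares plotted were at most 0.0271 percentage points wide and cover counting error only. *Col1a1* alone took 5.39%, 5.57% and 6.06% of control counts and 0.537%, 0.332% and 2.88% of the cKO counts. The other 8 chains together took 0.807% ± 0.0664 (SD, n = 3) in controls and 0.484% ± 0.0956 (SD, n = 3) in cKO libraries. Among the counts of the 10 genes, the *Col3a1* share was 2.29%, 2.63% and 2.55% in controls and 19.9%, 24.0% and 4.37% in cKO libraries. Replicates 1 and 2 thus held a different collagen make-up from replicate 3, which lay nearer to controls.

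**Figure D3:**
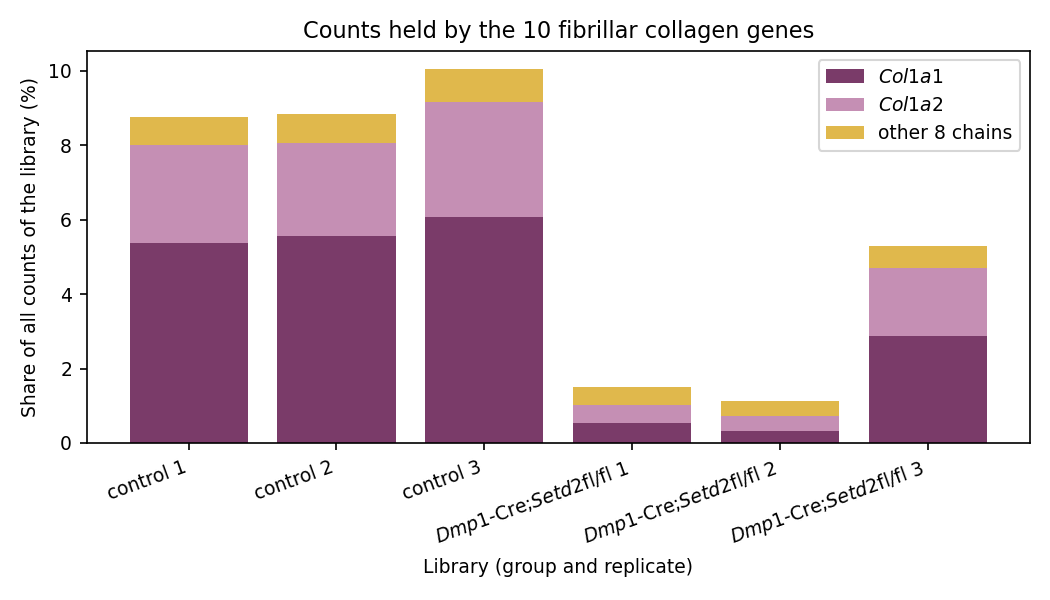
Share of all counts of each library, in percent, held by *Col1a1*, *Col1a2* and the other 8 chains, for the 3 control and the 3 cKO libraries, with no error bars since each bar is 1 library. The stacks reach 8.76% to 10.0% in controls and 1.12% to 5.29% in cKO libraries.

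A ratio of 2 genes within a library does not depend on how libraries are scaled, so each chain was set against *Col1a1* (log2 of counts, each with 0.5 added). With 3 libraries against 3 the exact two-sided permutation test cannot go below p = 0.1, and no ratio could pass 0.05. *Col3a1* relative to *Col1a1* stood at -4.63 ± 0.10 in controls and -1.60 ± 1.79 in cKO libraries (SD, n = 3), a difference of 3.03. The ratio was also higher in all 3 cKO libraries than in any control for *Col5a1* (difference 2.61), *Col5a3* (2.56), *Col24a1* (2.01), *Col5a2* (1.83), *Col27a1* (0.97) and *Col1a2* (0.87). These 7 ratios each gave p = 0.1 by the exact permutation test, the smallest it can give, and 0.129 after adjustment over 9 ratios. All 9 share *Col1a1* as divisor, so they are not independent. *Col1a1* was lower in all 3 cKO libraries than in any control, so a gene that did not change would also show a higher ratio. *Col3a1* itself changed by 0.12 on the log2 scale. The share of all genes with such a ratio was not computed.

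*Col11a1* and *Col11a2* were the exceptions. The ratio of *Col11a1* to *Col1a1* differed by 0.80 with overlap of the groups (exact permutation p = 0.3, adjusted p = 0.338). That of *Col11a2* was -4.63, -4.67 and -4.38 in controls and -4.66, -5.32 and -4.46 in cKO libraries. The difference of -0.25 (exact permutation p = 0.5) lay within the spread, and without any single library it ran from -0.43 to -0.00. The ratio ran from -5.32 in cKO replicate 2 to -4.38 in control replicate 3, while *Col1a1* itself went from 3267 to 64929 CPM. A test of 3 libraries against 3 cannot show that the ratio was unchanged. Within type XI, the *Col11a1* to *Col11a2* ratio per length was 0.294, 0.286 and 0.202 in controls and 0.607, 1.16 and 0.216 in cKO libraries.

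**Figure D4:**
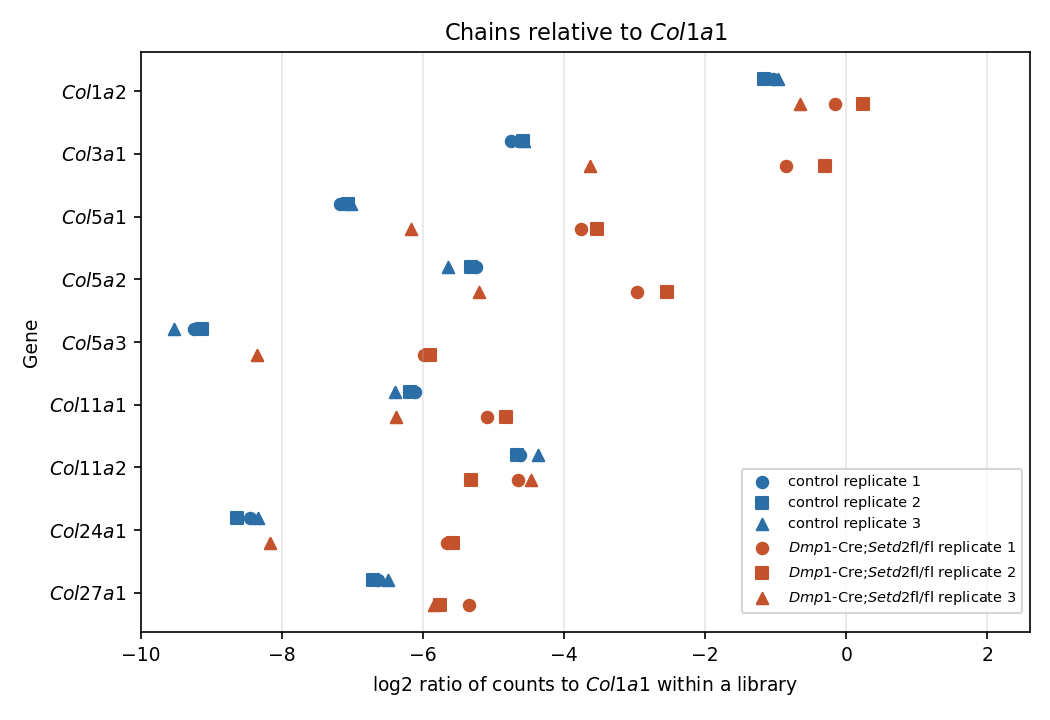
Ratio of each other chain to *Col1a1* within each library, as log2 of counts, with blue symbols for control and orange symbols for cKO libraries and the symbol shape giving the replicate number. The groups overlap only for *Col11a1* and *Col11a2*, and the *Col3a1* ratio moves by 3.03 between the group means.

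Sequences before the RefSeq starts are shown for chains that differed in response, with motifs of collagen and skeletal promoters marked. RefSeq promoters (GRCm38.p6) were at hand for 8 of the 10 members, not for *Col1a1* and *Col5a2*, and 250 bases before each start were searched on both strands. The RefSeq windows of *Col1a2* and *Col27a1* lie inside the spans that the deposited table gives these genes, so they were searched but are not printed. Printed stretches, other than that of *Col11a2*, were cut where an annotated collagen transcript begins, and capitals mark matches to the letters searched, also as reverse complements. Of chains that were called lower, *Col11a1* is shown at chr3:114030290-114030478 and *Col24a1* at chr3:145292222-145292471, both on the plus strand. *Col3a1* at chr1:45311288-45311537 (plus strand) is shown as the chain that was not lower, and *Col11a2* by 30 bases around its TATA match, since an annotated transcript or gene span begins further upstream in its window, at chr17:34038983-34039012 (plus strand).
Col11a1: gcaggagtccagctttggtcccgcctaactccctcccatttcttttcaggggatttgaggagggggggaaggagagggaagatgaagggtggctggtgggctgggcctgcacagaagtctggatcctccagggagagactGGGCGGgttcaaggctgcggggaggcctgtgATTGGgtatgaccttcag
Col24a1: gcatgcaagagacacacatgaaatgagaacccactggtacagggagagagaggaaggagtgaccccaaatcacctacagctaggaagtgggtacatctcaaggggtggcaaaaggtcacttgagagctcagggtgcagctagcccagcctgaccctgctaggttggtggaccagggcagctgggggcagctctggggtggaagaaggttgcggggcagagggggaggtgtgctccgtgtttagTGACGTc
Col3a1: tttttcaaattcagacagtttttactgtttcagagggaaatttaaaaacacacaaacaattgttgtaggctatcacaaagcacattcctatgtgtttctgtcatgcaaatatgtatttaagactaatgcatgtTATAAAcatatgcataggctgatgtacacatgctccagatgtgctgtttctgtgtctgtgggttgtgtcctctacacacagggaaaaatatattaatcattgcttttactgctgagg
Col11a2: tatagctgggtcTATAAAcaccCCGCCCag
The CCAAT box, searched as CCAAT, stood in *Col1a2* (109 bases before the RefSeq start), *Col5a3* and *Col11a1*, against 33.8% of 32851 promoters of this length. The letters of a TATA box, TATAAA, stood in *Col3a1* and *Col11a2* (12.4% of all promoters), 117 and 143 bases before the RefSeq start. The GC box, GGGCGG, stood in 6 of the 8 (32.7% of all), and the core of a cyclic AMP response element, TGACGT, in *Col11a2* and *Col24a1* (6.47% of all). TGTGGT, the letters of a RUNX core, stood in none of the 8 windows, against 14.0% of all promoters. The GC content, which was not taken for *Col27a1*, ran from 35.2% in *Col3a1* to 76.4% in *Col5a1*, with a median of 52.4% over all promoters. No match overlapped another. These are matches of letters, not sites shown to be bound.

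The nearest tested protein-coding genes on both sides came to 18 distinct genes that are no members, of which edgeR called 0 at the study's thresholds, with a median log2 fold change of 0.01. Their distance from the member ran from 1.04 kb (*Rxrb*) to 1489.7 kb (*S1pr1*, next to *Col11a1*), so not all of them are close by. With 2.71% of all genes called lower and 1.10% higher, a count of 0 among 18 is near the background. *Rxrb*, a nuclear receptor gene 1.04 kb from *Col11a2*, had a change of 0.01 on the log2 scale (standard error 0.10), and *Brd2* on the other side one of -0.06 (standard error 0.14). *Rxra* beside *Col5a1* had a log2 fold change of 0.37 (edgeR adjusted p = 0.652), under the threshold of size. *Sgca* beside *Col1a1* had the lowest value, -1.47 (standard error 0.75, edgeR adjusted p = 0.686), at 2.14 ± 0.712 CPM in controls (SD, n = 3). *Col3a1* and *Col5a2*, 24.6 kb apart on chromosome 1 with their 3′ ends facing each other, are each other's neighbour. Their ratio per length (*Col5a2* to *Col3a1*) was 0.523, 0.443 and 0.349 in controls and 0.171, 0.157 and 0.248 in cKO libraries, with no overlap.

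**Figure D5:**
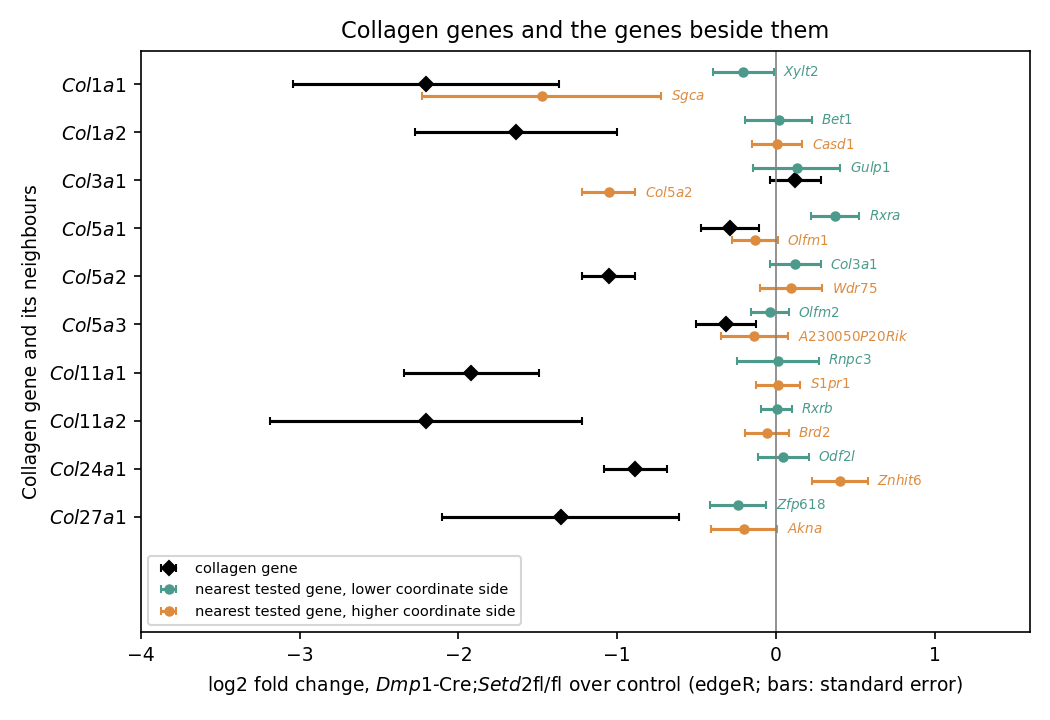
The log2 fold change of each collagen gene (black diamonds) and of the nearest tested protein-coding gene on its lower-coordinate (teal) and higher-coordinate (orange) side, from edgeR with bars of 1 standard error. Neighbours other than collagen genes lie between -1.47 (*Sgca*) and 0.40 (*Znhit6*).

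The genes most alike *Col1a1* over the 6 libraries, by Pearson's r of log2 CPM among 10483 genes with a mean of at least 10 CPM, were *Sort1*, *Sema7a*, *Loxl4*, *Mypn*, *Egr3* and *Prom2*, with r from 0.999 to 1.00. Those most alike *Col11a2* were *Tmem2*, *Kcnn4*, *Adamts2*, *Adamts9*, *Adamtsl2* and *Prom2*, with r of 0.997 to 0.999. All share the same 6 libraries and their order, so r is a description here. Their log2 fold changes ran from -0.89 (*Tmem2*) to -2.45 (*Prom2*). Likeness of shape thus spanned unlike sizes of change: *Sort1*, a sorting receptor gene, stood at 129 CPM in the control mean and 64.3 CPM in the cKO mean, and *Sema7a* at 229 and 57.1 CPM. *Adamts2* encodes the protease that cuts the amino propeptide from procollagen, and *Loxl4* a lysyl oxidase. Among the chains themselves, r with *Col1a1* was 0.996 for *Col1a2*, 0.995 for *Col11a2* and 0.987 for *Col11a1*, and -0.49 for *Col3a1*.

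Genes that make and mature procollagen were compared in the same fit, where 2.71% of all genes were called lower, 6.88% without cKO replicate 3, and the median log2 fold change over all genes was 0.02. Of 25 genes of folding and export in the endoplasmic reticulum, 2 passed the study's thresholds as lower and none as higher, with a median of -0.30. They were the prolyl hydroxylase genes *P3h1* and *P3h2*, *P3h2* at 24.2 ± 2.41 CPM in controls and 15.0 ± 2.47 CPM in cKO libraries (SD, n = 3). *P3h4* and *Fkbp14* had log2 fold changes of -0.55 and -0.41, under the threshold of size. The count was 9 without cKO replicate 3 and 1 without control replicate 3 or cKO replicate 1.

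Removal of propeptides and cross-linking had more members called lower. Of 9 propeptide genes, 4 were called lower (median -0.47): *Bmp1*, the carboxyl propeptide protease, *Pcolce*, its enhancer, *Adamts2* and *Adamts14*. *Pcolce* stood at 866 ± 150.1 CPM in controls and 425 ± 127 CPM in cKO libraries (SD, n = 3), a log2 fold change of -1.03, and *Bmp1* at 659 ± 12.3 and 425 ± 80.9 CPM, one of -0.63. The count was 2 without cKO replicate 2. Of the 5 lysyl oxidase genes, 3 were called lower (median -0.66), *Lox*, *Loxl3* and *Loxl4*. *Lox* stood at 282 ± 3.05 CPM in controls and 88.7 ± 58.7 CPM in cKO libraries (SD, n = 3), a log2 fold change of -1.67 (standard error 0.43, edgeR adjusted p = 0.625). Without cKO replicate 2 only 1 of the 5 was called.

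Of 15 tested genes of proteins that bind fibrils, 3 were called lower (median -0.09), *Sparc*, *Bgn* and *Epyc*. *Bgn*, the small proteoglycan biglycan, stood at 1768 ± 171 and 877 ± 281 CPM, and *Sparc*, osteonectin, at 12384 ± 835 and 4602 ± 2888 CPM, in controls and cKO libraries (SD, n = 3). None of 9 fibril-associated collagen genes (median -0.27) and none of 9 collagen receptor genes (median -0.27) was called in all 6 libraries. Without cKO replicate 3, 3 of each were called lower, and with the replicate block 1 and 2 of them, and without control replicate 3 the fibril-associated list had 1. Of 10 genes of fibril cleavage, 2 were called lower (median 0.08), *Timp1*, a protease inhibitor, and *Mmp16*, a membrane protease. Without cKO replicate 2 only 1 of the 10 was called. Of 18 transcription factor genes known to act on collagen genes, 2 were called lower (median 0.01), *Creb3l1*, which encodes a factor released from the endoplasmic reticulum of bone-forming cells, and *Zfp469*. Without any single library other than cKO replicate 3, 1 of the 18 was called. *Creb3l1* stood at 187 ± 39.6 and 78.4 ± 56.6 CPM (SD, n = 3). With all 6 libraries no gene of these 8 lists was called higher, and edgeR called 0 of them at an adjusted p under 0.05. Without cKO replicate 3, 2 genes of fibril-bound proteins and 1 each of folding, fibril-associated collagens and transcription were called higher. In that fit 677 of 16865 genes were called higher.

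Markers of the other cells the papilla could hold were set beside the collagen values. Of all genes, 2.71% were called lower and 1.10% higher. With the replicate block 4.37% were called lower and 339 of 16519 genes higher. Without cKO replicate 3, 6.88% were called lower and 677 of 16865 genes higher. All 6 odontoblast markers were called lower at the study's thresholds (median log2 fold change -1.60), none stood at 0, and 2 to 6 of them were called when 1 library was left out, with 2 without cKO replicate 1 and 3 without cKO replicate 2. With the replicate block 3 of the 6 were called. The study had already reported *Dspp*, *Dmp1*, *Wisp1*, *Sall1* and *Phex* as lower in these same data, so their calls are no independent result. None of 7 papilla mesenchyme markers was called (1 higher with the block or without cKO replicate 3), with sums of 4479 to 5414 CPM in controls and 4325 to 5114 CPM in cKO libraries. *Vim* made up most of these sums, at 3763 to 4636 CPM in controls and 3577 to 4393 CPM in cKO libraries. Of 6 osteoblast markers, *Bglap* and *Bglap2* were called lower, which odontoblasts also express, and *Ibsp*, *Spp1*, *Alpl* and *Sp7* were not, and with the replicate block 0 were called. None of 4 dental follicle markers was called (1 higher without cKO replicate 3). The 5 tested cartilage markers summed to 72.2 to 91.4 and 47.1 to 91.5 CPM, with none called (1 lower with the block or without control replicate 3) and *Acan* at 2.80 CPM in the control mean.

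Epithelial markers, none of them called with all 6 libraries and 1 lower without cKO replicate 3, were high in replicate 3 of both groups, as given above, and cKO replicate 3 was also the library of its group with the highest *Col1a1* and *Col11a2*. Neutrophil markers had *Ngp* and *Camp* called higher, where 1.10% of all genes were. Without cKO replicate 3 all 4 were called higher, where 677 of 16865 genes were. The 4 markers summed to 2.89 to 18.8 CPM in controls and to 64.2, 129.8 and 3.75 CPM in cKO replicates 1, 2 and 3. The 4 endothelial, 4 mural, 4 macrophage, 3 red cell and 3 Schwann cell markers held no call with all 6 libraries, and without cKO replicate 3 a macrophage marker was called higher. The part of any of these cells in the collagen values was not tested.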

How the data were processed

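Whole-number counts per gene were deposited by the authors in 1 table for 6 libraries of mDPCs, with HISAT2 as the aligner and HTSeq as the counter. The submitters' notes also name Bowtie2, DESeq2 and GRCm39, but 47.4% of 24521 shared genes start or end where RefSeq has them on GRCm38.p6 and 1.25% of 30418 where GENCODE has them on GRCm39, so positions were read as GRCm38. The table's columns of the authors' own comparison (mean, fold change, p-values) were not used, and 0 columns of per-sample values were left unused.

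Counts were compared with edgeR 4.0.16 (R 4.3.3) by its robust quasi-likelihood test, after filterByExpr (minimum count 10) and TMM scaling, in all 6 libraries, with Benjamini-Hochberg adjustment over 16519 genes. Log2 CPM used a prior count of 2. Alternatives were DESeq2 1.42.0, limma 3.58.1 voom with quality weights, other scalings and filters, and each library left out. Leaving replicate 3 out of both groups was chosen after seeing the data. Spliced lengths came from GENCODE vM39 canonical transcripts. Permutation tests used scipy 1.17.1.

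Deviations from group means correlated over genes at 0.453, 0.465 and 0.663 between libraries of replicate number 1, 2 and 3, numbers given by the sample labels, which was read as pairing. Control 2 with cKO 1 gave 0.455 and control 1 with cKO 2 gave 0.380, so the values set replicate 3 apart and do not tell 1 from 2. No pair of libraries of a group was within sampling noise. The members and gene lists were chosen with earlier results of these data known. Named genes were all members, the 6 genes most alike *Col1a1* and *Col11a2*, up to 3 genes of smallest p per pathway list, nearest neighbours, *Setd2*, *Dspp* and *Dmp1*. Genes called in a list, *Gm43921*, *Col2a1* and *Vim* were named after their values were seen. Lists covered collagen folding, propeptide removal, cross-linking, fibril-associated collagens, fibril-bound proteins, receptors, cleavage and transcription, and markers of odontoblasts and of neighbouring cell types.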

Additional observations from a re-analysis of the deposited data

How the results depend on the processing

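The number of chains called lower at the study's thresholds was 5, and stayed within 1.5 times of it with DESeq2, other scalings, a strict filter, limma voom, the replicate block and a threshold of 1 on the log2 scale. With no filter on low counts it was 3, where 597 of 31613 genes were called lower. Leaving out 1 library at a time gave 3 to 7, with 7 only without cKO replicate 3. Over all genes these fits called from 282 of 16944 (without cKO replicate 2) to 1161 of 16865 (without cKO replicate 3) lower. At an adjusted p under 0.05 the count was 0 by edgeR, 1 with no filter (*Col5a2*), 2 with the replicate block, 3 by DESeq2, 7 by limma voom and 7 with replicate 3 left out of both groups. Leaving out 1 library at a time gave 0 to 7, and 7 again only without cKO replicate 3. The cause was not tested. No log2 fold change of a chain changed sign in 150 alternative values. Of these, 131 stayed on the same side of the study's thresholds, 12 (*Col1a1* and *Col1a2*) no longer passed and 7 (*Col11a2* and *Col27a1*) now passed. By limma voom the log2 fold changes of *Col1a1*, *Col11a2* and *Col27a1* were -3.41, -3.49 and -2.16. The block changed no call among the chains at the study's thresholds. Scaling by total counts moved the median of all genes to 0.10. Depth was even and high. The coefficient of variation between pools was 9.73% in controls and 118% in cKO libraries for *Col1a1*. It was 21.2% and 130% for *Col11a2*, while *Col3a1* went the other way, at 15.4% and 5.86%. The part of this spread in the calls was not tested.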
